A study of Mus musculus with 2 samples.

Results

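Vcan-positive classical monocytes made up 654 of the 19826 CD45-sorted cells of both libraries, 294 of 8557 cells after control IgG and 360 of 11269 cells after anti-CD3L1. The cells came from 143B osteosarcoma tumors, a human line grown under the skin of nude mice, which lack T cells and keep their myeloid cells. The mice were female and 4 weeks old at the start, and they received either a human IgG1 control or an antibody to CD3L1 at 10 mg/kg every 3 days for 4 doses. Each group was 1 library prepared from a set of 3 tumors, so no p-value is given, and every interval covers counting error only, not the spread between mice. The comparison asked what the antibody changed in myeloid cells when T cells are absent.

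Members were chosen by their own counts. A unique molecular identifier (UMI) marks 1 captured RNA molecule, and a cell had to carry at least 500 UMIs, over 200 and under 6000 genes and under 5% mitochondrial UMIs. Among these cells a member held at least 2 UMIs of Vcan and at least 1 of Ccr2, under 0.1% of its UMIs from C1qa, C1qb and C1qc, under 2% from S100a8 and S100a9, under 0.1% from Ifit2, Ifit3 and Cmpk2, no Flt3, and at most 2 detected genes out of Slc7a2, Inhba, Areg, Il10, Pdpn, Mmp19, Sdc1 and Flrt3. The levels of these genes in the members follow from the rule and are given only as a description. The members with exactly 2 Vcan UMIs numbered 58 after control IgG and 107 after anti-CD3L1. Just outside the rule, 94 and 243 cells met every other condition with 1 Vcan UMI. Cells with 0 Vcan UMIs that met the rest were 420 and 2111.

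Classical monocytes are blood cells made in the bone marrow that follow the chemokine Ccl2 into inflamed tissue and tumors through the receptor Ccr2. There they can turn into macrophages, losing Ly6c2 and Plac8 and gaining complement, lipid-handling and antigen-presentation genes. Versican, the product of Vcan, is a large matrix proteoglycan that freshly arrived monocytes make.

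The share of members among all cells was 3.44% after control IgG (exact binomial interval 3.06 to 3.84) and 3.19% after anti-CD3L1 (2.88 to 3.54), and these intervals overlap. With 1 Vcan UMI in place of 2 the order turned, at 4.53% and 5.35%. The denominators held very different numbers of neutrophils, 3540 and 356, counted as cells with Csf3r, at least 2% S100a8 and S100a9 and no Csf1r or Ncr1. Over cells with under 2% S100a8 and S100a9 the shares were 10.5% (9.42 to 11.7) and 3.35% (3.02 to 3.71), and here the control IgG share lay higher. These denominators, 2792 and 10754 cells, differed in make-up too. They held 212 and 2047 C1q-high cells and 791 and 1488 Inhba Slc7a2 cells, both described further on. Members carried a median of 12512 UMIs and 3136.5 genes after control IgG, and 8595 UMIs and 2716.5 genes after anti-CD3L1. Summed over members, the libraries held 3766427 and 3271124 UMIs. The libraries shared 26 barcodes of cells, and 0 of these marked a member in both. A difference in share cannot be told apart from a difference between the pooled tumors or sorts.

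The marker genes fitted the label in part. Levels are given as CPM, a gene's UMIs per 1000000 summed UMIs of the cells in question, which in these end-tagged libraries are not divided by gene length, so they compare a gene between cells and not one gene with another. Plac8, a small protein of myeloid and lymphoid cells, stood at 2318 CPM with control IgG and 2332 CPM with anti-CD3L1. The log2 ratio, here always anti-CD3L1 to control IgG, was 0.01 (95% interval -0.04 to 0.05), and that interval spans 0. Ly6c2, the surface antigen that defines classical monocytes, stood at 515 CPM with control IgG and 1096 CPM with anti-CD3L1, a log2 ratio of 1.09 (95% interval 1.01 to 1.17). Chil3, a chitinase-like protein of marrow-derived monocytes, stood at 119.7 CPM with control IgG and 58.4 CPM with anti-CD3L1, a log2 ratio of -1.04 (95% interval -1.29 to -0.79). Thbs1, the matrix glycoprotein thrombospondin, stood at 348 CPM with control IgG and 244 CPM with anti-CD3L1, a log2 ratio of -0.51 (95% interval -0.64 to -0.38). That ratio was -1.39 with the rule applied after thinning each cell to 2000 UMIs, and -0.18 with the profile of empty droplets subtracted. Plac8 thus had a near-equal level in both libraries, Ly6c2 was higher and Chil3 lower after anti-CD3L1. Of the rule genes, Vcan stood at 569 and 551 CPM and Ccr2 at 451 and 733 CPM.

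The markers also varied from cell to cell. With every cell thinned to 2000 UMIs, which left out 3 and 1 members, Plac8 was detected in 80.4% and 88.9% of members of the control IgG and anti-CD3L1 libraries. Ly6c2 was detected in 46.7% and 70.8%, against 3.23% and 5.75% of NK cells, some of which can express it, at median depths of 12260 and 8690 UMIs. Without thinning, Ly6c2 was found in 73.5% and 85.8% of members. Chil3 was detected in 16.8% and 10.9% of thinned members and in 43.9% and 26.9% before thinning, so most members gave no Chil3 UMI even at full depth. In NK cells, which should lack Chil3, it was detected in 0 of 62 and 0 of 174 thinned cells, with exact binomial intervals up to 5.78% and 2.10%. Thbs1 was detected in 33.3% and 22.8% of thinned members. In the C1q-high cells described further on, Plac8 was detected in 16.04% and 28.2% and Chil3 in 0.472% and 1.23%.

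Ly6c2 was similar on both sides of the Vcan threshold, while H2-Aa was less so. After control IgG, members with 2 Vcan UMIs held 482 CPM of Ly6c2 and cells with 1 Vcan UMI held 473 CPM. After anti-CD3L1 the corresponding values were 985 and 958 CPM. H2-Aa stood at 802 CPM inside and 594 CPM outside after control IgG, and at 1733 and 1905 CPM after anti-CD3L1.

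Across all genes, 3384 reached 50 CPM in at least 1 library. Of these, 140 were at least 2-fold higher after anti-CD3L1, which is 4.14%, and 96 were at least 2-fold lower, which is 2.84%. The median log2 ratio over the 3384 genes was 0.09, with 59.3% of them above 0 and 40.7% below. In both libraries 2794 genes reached it, of which 2.36% were at least 2-fold higher and 1.68% lower. A gene that reached 50 CPM only in the library where it was high had to differ, so the counts of the lists below, also those above or below 0, are read beside these shares. The plot of levels in both libraries shows that most genes lay near the diagonal, and that the genes far below it were few.

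**Figure D1:**
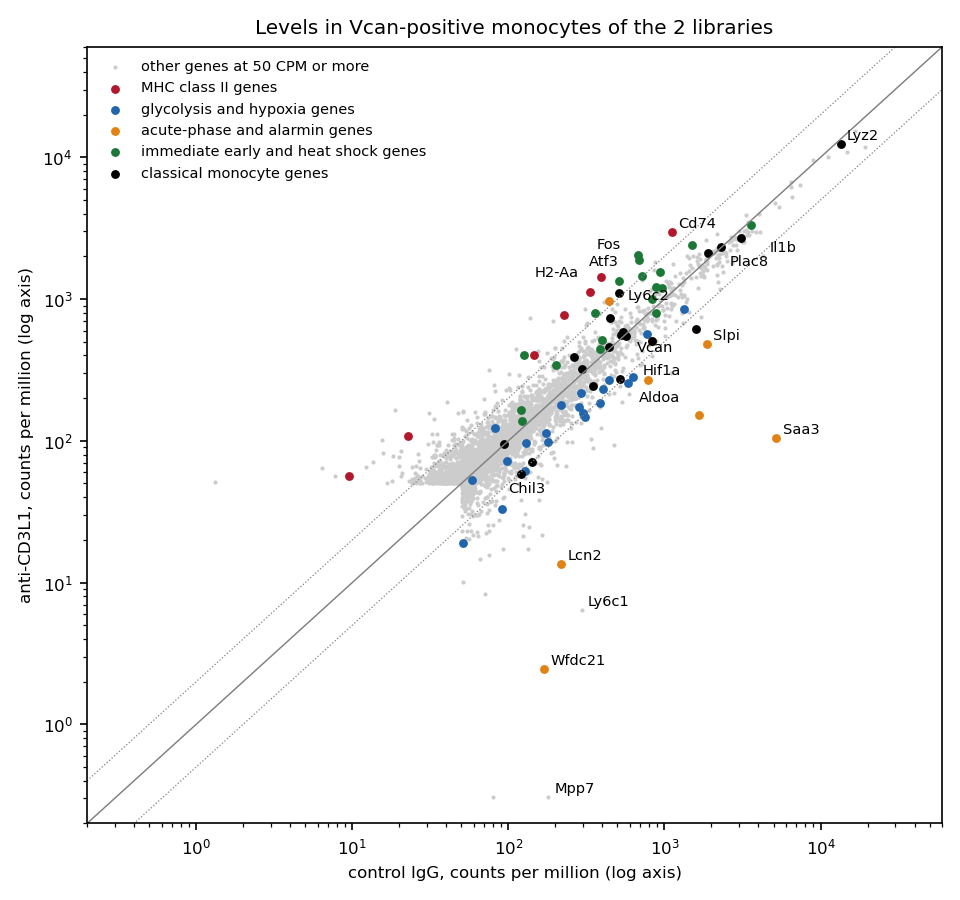
Each point is 1 of 3384 genes, with its CPM in Vcan-positive monocytes after control IgG (horizontal, log axis) and after anti-CD3L1 (vertical, log axis), the solid line marks equality and the dotted lines 2-fold. MHC class II genes lie above the upper dotted line, while Saa3, Lcn2, Wfdc21, Ly6c1 and Mpp7 lie far below the lower one.

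Antigen-presentation genes were higher throughout. MHC class II molecules display peptides from outside the cell to helper T cells, and Ciita is the coactivator that switches their genes on. All 7 of the listed class II genes at 50 CPM, out of 9 listed, were at least 2-fold higher in the treated library, and their median log2 ratio was 1.77. Ciita and H2-DMb1 reached 50 CPM only in the anti-CD3L1 library and so had to differ. The other 5, at 50 CPM in both, had a median of 1.74. H2-Aa, an alpha chain, stood at 393 CPM with control IgG and 1429 CPM with anti-CD3L1, giving a log2 ratio of 1.86 (95% interval 1.78 to 1.95). H2-Ab1, its partner beta chain, stood at 335 and 1119 CPM, a log2 ratio of 1.74. Cd74, the invariant chain that guides class II molecules to the endosome, stood at 1121 and 2949 CPM, a log2 ratio of 1.39. H2-Eb1, another beta chain, stood at 228 and 776 CPM, a log2 ratio of 1.77. With the profile of empty droplets subtracted, H2-Eb1 fell under 2-fold at 0.84 and H2-Ab1 stood at 1.01. The chaperones that load peptide, H2-DMa and H2-DMb1, had log2 ratios of 1.47 and 2.25. Ciita stood at 9.56 and 56.9 CPM.

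The class II genes were also carried by more of the members. H2-Aa was detected in 18.9% and 53.5% of thinned members, against 6.45% and 9.20% of NK cells. Summed over the list, a thinned member held a median of 1 UMI after control IgG and 4 UMIs after anti-CD3L1. The 90th percentiles were 14 and 38 UMIs, and 42.3% and 15.9% of members held none. The class II level was therefore uneven among members in both libraries, with some cells far above the rest in the plot of summed list UMIs per cell. Markers of other cells that carry class II molecules were also higher. The 10 C1q macrophage markers summed to 1129 and 2351 CPM in the members, led by Apoe at 3297 and 5969 UMIs, with 0 at 0, and to 4758 and 13218 CPM in droplets without a cell. H2-Aa was detected in 57.5% and 78.7% of thinned C1q-high cells. The dendritic cell markers summed to 32.4 and 60.5 CPM, with Ccr7 at 70 UMIs and Batf3 at 105 UMIs the most abundant in the control IgG and anti-CD3L1 libraries, and 1 and 2 of 10 markers at 0. The B cell markers summed to 21.0 and 44.6 CPM, led by Ighm, with 3 of 7 at 0 in each library. H2-Aa stood at 444 and 2341 CPM in the droplets without a cell and at 49.3 and 71.3 CPM in NK cells. The part of free RNA in the members' class II counts was not tested beyond the subtraction of the empty droplet profile, and the part of other cells was not tested.

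Class I genes moved less. They present peptides made inside the cell to cytotoxic T cells. All 12 at 50 CPM were above 0 on the log2 scale, with a median of 0.52, and 1 was at least 2-fold higher. For the 10 at 50 CPM in both libraries the median was 0.48. The gene past 2-fold was Tap1, a subunit of the peptide transporter, at 55.0 and 113 CPM. Nlrc5, the class I counterpart of Ciita, stood at 34.8 and 66.9 CPM, and the heavy chains H2-K1 and H2-D1 had log2 ratios of 0.38 and 0.20. B2m, the shared light chain, was near equal at 1643 and 1767 CPM.

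Interferon-responsive genes had ratios above 0. All 9 interferon-gamma response genes at 50 CPM had ratios above 0, 5 of them at least 2-fold, with a median log2 ratio of 1.13. Of these 9, Cxcl9, Gbp2, Gbp3, Ciita, Ifi47 and Gbp2b reached 50 CPM only in the anti-CD3L1 library and so had to differ. Of the other 3, 1 was at least 2-fold higher. Irf1, a transcription factor induced by interferon-gamma, stood at 116 CPM with control IgG and 292 CPM with anti-CD3L1, a log2 ratio of 1.33. Gbp2b, a guanylate-binding GTPase, stood at 35.05 and 93.5 CPM, and the related Gbp2 at 47.5 and 82.5 CPM. Ifi47, an immunity-related GTPase, stood at 36.4 and 79.5 CPM. Cxcl9, a chemokine for activated lymphocytes, stood at 15.7 and 81.6 CPM, but 1 cell held 67.8% of its UMIs after control IgG and 1 cell held 29.2% after anti-CD3L1. With the rule applied after thinning each cell to 2000 UMIs, 6 of 7 genes of this list were above 0, and the log2 ratios were 0.19 for Irf1 and 0.05 for Gbp2b. The type I interferon-stimulated genes had smaller ratios. All 23 at 50 CPM, none of them a gene of the rule, were above 0, with a median log2 ratio of 0.61, and 1 was past 2-fold. In both libraries 16 reached 50 CPM, with a median of 0.59 and 0 past 2-fold. With the rule applied after thinning, 13 of 20 were above 0. The gene past 2-fold was Ly6a at 31.1 and 158 CPM. Irf7, which amplifies the type I response, stood at 226 and 391 CPM and Rsad2, the antiviral enzyme viperin, at 246 and 406 CPM. Isg15, a ubiquitin-like modifier, was close at 439 and 487 CPM. The rule capped Ifit2, Ifit3 and Cmpk2, so cells with high levels of these were kept out of the members in both libraries.

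The promoters of these lists were searched for short motifs that transcription factors of the pathways are known to bind. RefSeq promoters (build GRCm38.p6) run from 250 bases before to 50 bases after each gene's start, and letters were counted on either strand. The CCAAT box, CCAAT, is the core bound by the factor NF-Y, a part of the class II enhanceosome. It was found in 5 of the 6 class II promoters matched, against 37.9% of 27025 promoters. The spaced interferon element, AAANNGAAA, was found in 11 of 14 interferon-gamma response promoters and in 16 of 21 type I promoters, against 10.7% of all promoters. The hypoxia response core, ACGTG, was found in 11 of 22 promoters of the glycolysis and hypoxia list taken up below, against 19.7%. The AP-1 site, TGANTCA, was found in 0 of 14 promoters of the immediate early and heat shock list, against 7.93%. This says only that these letters are not in this window. A match is a description of letters, and no binding was measured. The 200 bases before the start are shown for 2 genes each of the class II, interferon-gamma and hypoxia lists, which hold the motif and whose levels are given in the text, with the motif in capitals.
H2-Aa (chr17:34287824-34288023, minus strand): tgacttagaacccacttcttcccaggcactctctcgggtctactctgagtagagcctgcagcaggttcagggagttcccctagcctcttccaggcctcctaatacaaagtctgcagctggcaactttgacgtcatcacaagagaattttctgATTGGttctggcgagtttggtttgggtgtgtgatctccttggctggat
H2-Eb1 (chr17:34305667-34305866, plus strand): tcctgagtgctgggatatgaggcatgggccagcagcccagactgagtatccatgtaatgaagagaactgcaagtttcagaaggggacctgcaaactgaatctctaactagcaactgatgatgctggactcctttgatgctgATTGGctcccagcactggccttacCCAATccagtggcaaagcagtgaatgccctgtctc
Gbp2b (chr3:142594647-142594846, plus strand): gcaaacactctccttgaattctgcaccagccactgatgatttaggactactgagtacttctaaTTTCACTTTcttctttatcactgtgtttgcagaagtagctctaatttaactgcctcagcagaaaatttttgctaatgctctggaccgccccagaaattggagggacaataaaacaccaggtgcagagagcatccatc
Gbp2 (chr3:142620463-142620662, plus strand): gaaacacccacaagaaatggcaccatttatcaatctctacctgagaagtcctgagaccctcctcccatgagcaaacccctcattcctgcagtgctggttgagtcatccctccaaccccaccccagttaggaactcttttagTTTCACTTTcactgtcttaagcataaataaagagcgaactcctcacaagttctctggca
Pgk1 (chrX:106186900-106187099, plus strand): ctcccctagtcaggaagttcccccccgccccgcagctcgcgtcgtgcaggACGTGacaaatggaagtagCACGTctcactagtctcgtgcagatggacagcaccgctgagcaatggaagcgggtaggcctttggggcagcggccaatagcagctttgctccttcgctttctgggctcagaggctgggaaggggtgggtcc
Bnip3 (chr7:138909507-138909706, minus strand): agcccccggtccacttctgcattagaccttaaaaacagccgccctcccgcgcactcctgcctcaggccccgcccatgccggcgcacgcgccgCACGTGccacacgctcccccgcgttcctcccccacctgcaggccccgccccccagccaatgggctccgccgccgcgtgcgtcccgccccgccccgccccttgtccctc

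Glycolysis and hypoxia genes were lower as a group. Hif1a encodes the oxygen-regulated factor that turns on glycolytic enzymes and glucose transport. Of 21 listed genes at 50 CPM, 20 had ratios below 0, 7 were at least 2-fold lower and 0 at least 2-fold higher, with a median log2 ratio of -0.71. Bnip3 and Ero1l reached 50 CPM only in the control IgG library, and of the other 19 genes 5 were at least 2-fold lower. Hif1a stood at 626 CPM with control IgG and 282 CPM with anti-CD3L1, a log2 ratio of -1.15 (95% interval -1.26 to -1.04). Aldoa, the aldolase of glycolysis, stood at 586 and 254 CPM, a log2 ratio of -1.21 (95% interval -1.32 to -1.09). Pgk1, phosphoglycerate kinase, stood at 384 and 185 CPM. Bnip3, a mitophagy receptor, stood at 51.2 and 19.0 CPM, and Ero1l, an oxidase of the endoplasmic reticulum, at 91.6 and 33.0 CPM. Slc2a1, the glucose transporter Glut1, stood at 128 and 60.8 CPM and Mif, a cytokine, at 309 and 147 CPM. The log2 ratio of Mif was -1.07, and -3.38 with the empty droplet profile subtracted. Pfkp, a phosphofructokinase, was the exception at 82.0 and 123 CPM. A thinned member held a median of 12 list UMIs after control IgG and 8 after anti-CD3L1.

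Other cells differed in these genes to varying degrees. Hif1a stood at 641 and 332 CPM in the Inhba Slc7a2 cells, at 285 and 147 CPM in NK cells and at 449 and 540.5 CPM in neutrophils, in the order control IgG and anti-CD3L1. Aldoa stood at 772 and 388 CPM, 298 and 194 CPM and 813 and 559 CPM in the same cells. In C1q-high cells Hif1a stood at 244 and 169 CPM and Aldoa at 449 and 412 CPM, so Aldoa was close there, and Hif1a was higher in neutrophils after anti-CD3L1. Whether the members differed from these cells in this respect was not tested.

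**Figure D2:**
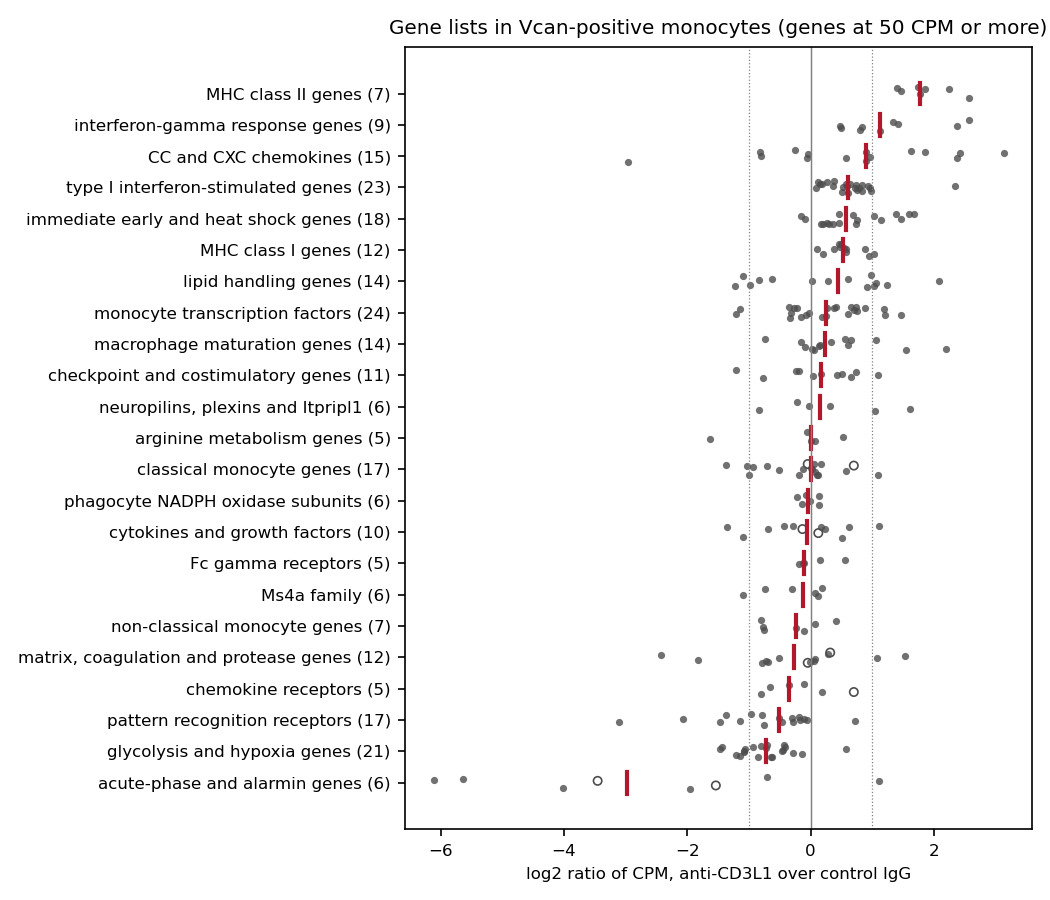
Each point is 1 listed gene at 50 CPM or more in at least 1 library, at its log2 ratio (anti-CD3L1 to control IgG) in Vcan-positive monocytes, and red bars mark the medians. Genes of the rule are open circles and are left out of the medians and of the number of genes in brackets. MHC class II genes had the highest median at 1.77 and acute-phase and alarmin genes the lowest at -2.99, which was -1.33 for the 4 at 50 CPM in both libraries.

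Acute-phase and alarmin genes had the lowest median of the lists. These secreted proteins are made by myeloid cells under inflammatory stress. Of 8 genes at 50 CPM, 6 were at least 2-fold lower, and the median log2 ratio was -2.71. These counts hold S100a8 and S100a9, which the rule limited. Without them, 4 of 6 genes were at least 2-fold lower and the median was -2.99. Lcn2 and Wfdc21 reached 50 CPM only in the control IgG library, and of the other 4 genes 2 were at least 2-fold lower, with a median of -1.33. Saa3, a serum amyloid A protein, stood at 5221 CPM with control IgG and 104 CPM with anti-CD3L1, a log2 ratio of -5.65 (95% interval -5.80 to -5.49). Slpi, a leukocyte protease inhibitor, stood at 1876 and 483 CPM, a log2 ratio of -1.96 (95% interval -2.04 to -1.88). Lcn2, an iron-binding lipocalin, stood at 217 and 13.5 CPM, and Wfdc21 at 169 and 2.45 CPM. Wfdc17 was the exception at 444 and 962 CPM. S100a8 and S100a9 stood at 1665 and 152 CPM and 784 and 270.2 CPM.

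Saa3 was lower in other cells too. It stood at 1918 and 19.5 CPM in C1q-high cells, 4972 and 40.8 CPM in neutrophils and 6248 and 62.3 CPM in droplets without a cell. In NK cells it stood at 63.7 and 1.18 CPM. In the members, 66.1% of its UMIs lay in the 30 highest of 294 cells after control IgG, and the highest cell held 1494 UMIs. Neutrophil markers moved with this list. Their 15 genes summed to 2838 and 704 CPM in the members, led by S100a8 at 6272 UMIs and S100a9 at 884 UMIs, with 0 and 1 markers at 0. Without S100a8 and S100a9, which the rule limited, the sums in the members were 388 and 282 CPM. In droplets without a cell the sums over all 15 were 74424 and 1689 CPM, and in neutrophils 198587 and 122643 CPM. The part of neutrophil RNA in the members' alarmin counts was not tested.

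Pattern recognition receptors mostly lay lower. Of 17 at 50 CPM, 16 had ratios below 0 and 5 were at least 2-fold lower, with a median log2 ratio of -0.52. With members thinned, 6 of 18 had ratios above 0, and with the empty droplet profile subtracted 4 of 18 did. At 50 CPM in both libraries were 11, of which 2 were at least 2-fold lower. Cd14, the coreceptor for lipopolysaccharide, stood at 1587 CPM with control IgG and 612 CPM with anti-CD3L1, a log2 ratio of -1.38 (95% interval -1.45 to -1.30). Fpr1 and Fpr2, receptors for formylated peptides, stood at 70.9 and 8.25 CPM and at 128 and 30.6 CPM. Trem1, which amplifies inflammatory signals, stood at 156 and 55.9 CPM. Tlr4, which signals for lipopolysaccharide together with Cd14, was the exception at 57.1 and 94.2 CPM. The Fc gamma receptors and the subunits of the phagocyte NADPH oxidase showed no such shift. Their median log2 ratios were -0.11 over 5 genes and -0.04 over 6 genes, and none passed 2-fold.

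Cytokines and chemokines split in direction. Of 10 cytokine and growth factor genes at 50 CPM, the rule genes left out, 5 had ratios above 0 and 5 below. Of these 10, 1 was at least 2-fold higher and 2 at least 2-fold lower. At 50 CPM in both libraries were 9, with 0 at least 2-fold higher and 2 lower. Il1b, the inflammatory cytokine interleukin-1 beta, stood at 4276 CPM with control IgG and 1999.6 CPM with anti-CD3L1, a log2 ratio of -1.10 (95% interval -1.14 to -1.05). Il1a stood at 195 and 75.8 CPM. Tnf stood at 293 and 449 CPM, below 2-fold and in the other direction. Of 15 chemokine genes at 50 CPM, 5 were at least 2-fold higher and 1 at least 2-fold lower. Of 11 at 50 CPM in both libraries, 3 were at least 2-fold higher. Ccl9, a monocyte attractant, stood at 138 and 734 CPM. Ccl6 stood at 194 and 699 CPM. The eosinophil attractant Ccl24 stood at 18.9 and 165 CPM. Ccl7, a ligand of Ccr2, stood at 51.5 and 159 CPM. Cxcl3, a neutrophil attractant, stood at 134 and 17.1 CPM, while the related Cxcl2 was close at 6446 and 6167 CPM. Ccl9 was detected in 18.2% and 67.1% of thinned members.

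Genes of the immediate early response were higher. Fos, Jun, Atf3 and Egr1 encode transcription factors that cells switch on within minutes of a stimulus, tissue dissociation included. Of 18 immediate early and heat shock genes at 50 CPM, 6 were at least 2-fold higher and none at least 2-fold lower, with a median log2 ratio of 0.57. Fos stood at 680.5 CPM with control IgG and 2048 CPM with anti-CD3L1, a log2 ratio of 1.59 (95% interval 1.52 to 1.66). Egr1 stood at 126 and 401 CPM, Atf3 at 682 and 1886 CPM and Jun at 721 and 1466 CPM. Dusp1, a phosphatase that ends the same signal, stood at 509 and 1337 CPM. The heat shock genes moved less, with Hspa1a at 962 and 1188 CPM and Hspa8 at 3561 and 3339 CPM. A thinned member held a median of 21 list UMIs after control IgG and 36 after anti-CD3L1. Fos stood at 94.9 and 247 CPM in NK cells, 293 and 598 CPM in neutrophils and 1687 and 869.7 CPM in C1q-high cells, so the last had the opposite order. The sources used here do not give how long each sample spent in dissociation, and its part was not tested.

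**Figure D3:**
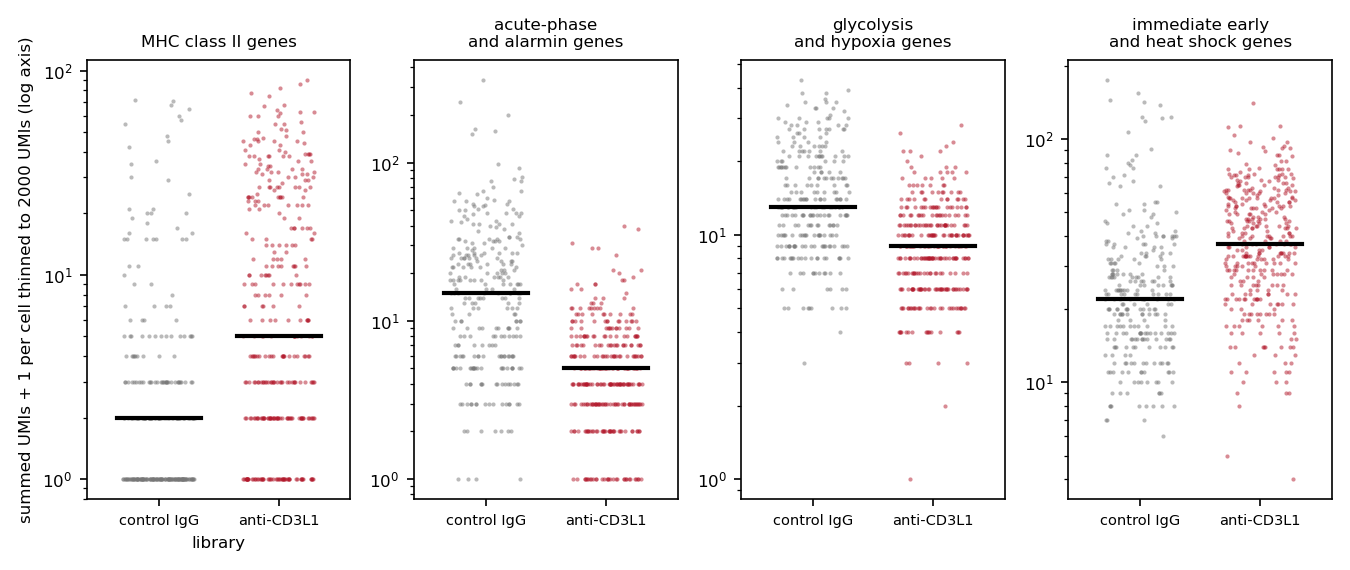
Each point is 1 member thinned to 2000 UMIs, at its summed UMIs plus 1 of the named list on a log axis, with the control IgG library in grey and the anti-CD3L1 library in red, and black bars mark the medians. Median sums were 1 and 4 for MHC class II genes, 14 and 4 for acute-phase and alarmin genes (10 and 4 without S100a8 and S100a9), 12 and 8 for glycolysis and hypoxia genes and 21 and 36 for immediate early and heat shock genes.

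The classical monocyte genes themselves lay on both sides of 0. Of 19 at 50 CPM, 10 had ratios above 0 and 9 below, 1 was at least 2-fold higher and 3 at least 2-fold lower, with a median log2 ratio of 0.01. Without Vcan and Ccr2, 9 of 17 were above 0 and 8 below. With them, 7 of 19 were above 0 under median-of-ratios scaling, and 13 of 20 with the empty droplet profile subtracted. Lyz2, the lysozyme of myeloid cells, stood at 13462 and 12392 CPM. F13a1, a clotting transglutaminase, stood at 444 and 462 CPM and Fn1, fibronectin, at 529 and 554 CPM. Itgam, the integrin CD11b, stood at 517 and 271 CPM, just under 2-fold lower. In the macrophage maturation list, 3 of 14 genes were at least 2-fold higher and none at least 2-fold lower. Of these 3, Mrc1 reached 50 CPM only in the anti-CD3L1 library. Mrc1, the mannose receptor CD206, stood at 40.6 CPM with control IgG and 187 CPM with anti-CD3L1, a log2 ratio of 2.20 (95% interval 1.95 to 2.47). With the rule applied after thinning, the ratio of Mrc1 was 3.52. Apoe, the lipid carrier, stood at 875 and 1825 CPM, and Spp1, osteopontin, at 100.4 and 295 CPM. Spp1 lay in few cells, with 89.4% of its UMIs in the 30 highest of 294 members after control IgG and 82.6% in the 36 highest of 360 after anti-CD3L1, and NK cells held 359 and 632 CPM. The 10 C1q macrophage markers, which include Apoe, summed to 31231 and 32807 CPM in C1q-high cells.

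Transcription factors of the monocyte lineage changed unevenly. Irf8, which drives monocyte and dendritic cell fate, stood at 81.8 CPM with control IgG and 226 CPM with anti-CD3L1, a log2 ratio of 1.47 (95% interval 1.27 to 1.66). Klf4, needed for classical monocytes to form, stood at 199 and 452 CPM and the related Klf2 at 236 and 544 CPM. Cebpb, a factor of inflammatory and emergency myelopoiesis, stood at 1714 CPM with control IgG and 742 CPM with anti-CD3L1, a log2 ratio of -1.21 (95% interval -1.28 to -1.14). Spi1, the lineage factor PU.1, was close at 649 and 515 CPM. Of 24 such factors, 3 were at least 2-fold higher and 2 at least 2-fold lower. Lipid-handling genes also split. Lpl, lipoprotein lipase, stood at 18.3 and 78.0 CPM, a log2 ratio of 2.09 that was 1.42 with the empty droplet profile subtracted and 3.61 with possible doublets left out. Fabp5, a fatty acid carrier, stood at 177 and 417 CPM. The scavenger receptors Msr1 and Olr1 stood at 518 and 243 CPM and 127 and 54.4 CPM.

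Among surface molecules that engage lymphocytes, Cd86 and Havcr2 passed 2-fold in opposite directions. Cd86, a costimulatory ligand, stood at 319 CPM with control IgG and 679 CPM with anti-CD3L1, a log2 ratio of 1.09 (95% interval 0.99 to 1.19). With members thinned or 1 Vcan UMI, Cd86 stood just under 2-fold at 0.99 and 0.93. Havcr2, the checkpoint Tim-3, stood at 193 and 83.2 CPM, a log2 ratio of -1.21. Cd274, the ligand PD-L1, was close at 251 and 220.1 CPM. Nrp2, the semaphorin and VEGF coreceptor neuropilin-2, which the study examined as a partner of CD3L1, stood at 219 CPM with control IgG and 188 CPM with anti-CD3L1, a log2 ratio of -0.22 (95% interval -0.37 to -0.06). It was detected in 26.8% and 25.1% of thinned members. Nrp1, the related coreceptor neuropilin-1, stood at 17.3 and 49.5 CPM, a log2 ratio of 1.52 (95% interval 1.10 to 1.96). With the rule applied after thinning, the ratio of Nrp1 was 3.785. That setting kept 1.002% and 0.912% of cells at 2000 UMIs each, so this ratio rests on few UMIs. Itpripl1 rested on 14 and 33 UMIs, at 3.72 and 10.1 CPM.

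The 15 genes with the largest ratios in each direction overlapped the lists above. On the higher side, Col3a1, a fibrillar collagen, came first at 1.33 and 51.4 CPM, but 1 cell held 164 of its 168 UMIs after anti-CD3L1. The stromal markers, 9 in all, summed to 46.5 and 156.8 CPM. Gm20513 stood at 6.37 and 64.8 CPM. Ckb, a creatine kinase, stood at 15.4 and 101 CPM and Plxdc2 at 13.5 and 70.6 CPM. The log2 ratio of Ckb was 2.71, and 1.54 with the empty droplet profile subtracted. Also among the 15 were Ccl24, Ciita, Ccl9, Cxcl9, Ly6a, H2-DMb1, Mrc1, Lpl, 4930523C07Rik, Frmd4b and Supt4a. On the lower side, Csf3, the growth factor for neutrophils, stood at 165 and 21.7 CPM. Its log2 ratio was -2.92, and -1.265 with the rule applied after thinning. Gpr84, a receptor for medium-chain fatty acids, stood at 135 and 24.8 CPM, Adam8, a protease, at 124 and 25.4 CPM, and Timp1, an inhibitor of matrix proteases, at 91.9 and 17.1 CPM. Ifitm1 stood at 476 and 93.9 CPM. The rest of the 15 were Saa3, Wfdc21, Lcn2, Ly6c1, Fpr1, Cxcl3, Mpp7, Tpd52l1, AI662270 and Gm34084. NK cell markers summed to 1.06 and 73.4 CPM in the members, with 7 and 0 of 9 markers at 0 and Nkg7 the most abundant after anti-CD3L1 at 71 UMIs.

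Members differed among themselves most in a small set of genes. The variance over the mean of thinned counts had a median of 1.12 in each library over genes with a mean of at least 0.1 UMI, and 21 genes were in the top 30 of both libraries. They included the class II genes Cd74, H2-Aa, H2-Ab1 and H2-Eb1, the immediate early genes Fos, Jun and Atf3, the cytokine genes Cxcl2, Ccl4, Cxcl10 and Il1b, and Apoe, Spp1, Slpi and Lyz2. Cd74 had a variance over mean of 12.6 after control IgG and 10.4 after anti-CD3L1. Across thinned members, 291 after control IgG and 359 after anti-CD3L1, class II genes went together. Pearson's r of H2-Ab1 and H2-Aa was 0.82 and 0.86. Fos and Jun had r of 0.68 and 0.58, and Fos and H2-Aa had r of -0.01 and 0.02. These are descriptions over cells of 1 library each, which share its free RNA.

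The members were compared with 3 other groups of cells in the same libraries, as a description without a test. The C1q-high cells, 212 and 2047 in number, held at least 0.5% of UMIs from C1q genes. Of 3172 genes, 121 (3.81%) were at least 2-fold higher in members in both libraries, and 140 (4.41%) were at least 2-fold lower. Of 17 classical monocyte genes, 14 were higher in members in both, a description that is not read against the 2-fold shares above. Ifitm6 stood at 4.29 and 10.3 CPM in C1q-high cells against 298 and 319 CPM in members. Hp, haptoglobin, stood at 31.0 and 13.7 CPM against 834 and 509.9 CPM. Plcb1 had a log2 ratio of members over C1q-high cells of 4.53 and 3.58. On the other side, Ccl8, a chemokine of resident macrophages, stood at 1325 and 1431 CPM in C1q-high cells. Pf4 and Ms4a7 had log2 ratios of -5.16 and -4.30 and -4.06 and -4.51. Of 18 macrophage maturation genes, 12 were lower in members in both libraries, a count likewise not read against the 2-fold shares.

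The cells with at least 3 of the 8 genes around Inhba and Slc7a2, 791 and 1488 in number, had the fewest genes past 2-fold of the 3 groups. Of 2998 genes, 10 (0.334%) were at least 2-fold higher in members in both libraries and 27 (0.901%) were at least 2-fold lower. The higher genes were Jun, Atf3, Fos, Hspa1a, Klf2, Mgst1, Chil3, Ifitm6, Ceacam1 and Add3. Jun stood at 314 and 362 CPM in those cells, and Klf2 at 113 and 94.9 CPM. Among the lower genes, Ctsk, a collagen-degrading cathepsin, had log2 ratios of -3.71 and -3.75, Mmp12, the macrophage elastase, of -1.66 and -3.18, Il7r of -1.65 and -2.95 and Spp1 of -1.59 and -2.31.

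The interferon-response monocytes were few, 14 and 33 cells, and differ from the members by the rule itself in Ifit2, Ifit3 and Cmpk2. Of 3119 genes, 26 (0.834%) were at least 2-fold higher in members in both libraries and 183 (5.87%) were at least 2-fold lower. Of 24 type I interferon-stimulated genes, with the 3 rule genes left out, 21 were at least 2-fold lower in members in both. The cells were split by genes of this same list, so the count is a description and is not read against the 2-fold shares. Cxcl10 stood at 5010.0 and 2490.4 CPM in the interferon-response monocytes against 300.3 and 251 CPM in members, and Rsad2 at 6488 and 4812 CPM against 246 and 406 CPM. The higher genes included Pde8a, Mctp1 and Svil, with log2 ratios of 2.47 and 2.25, 1.81 and 1.97 and 1.74 and 1.47.

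**Figure D4:**
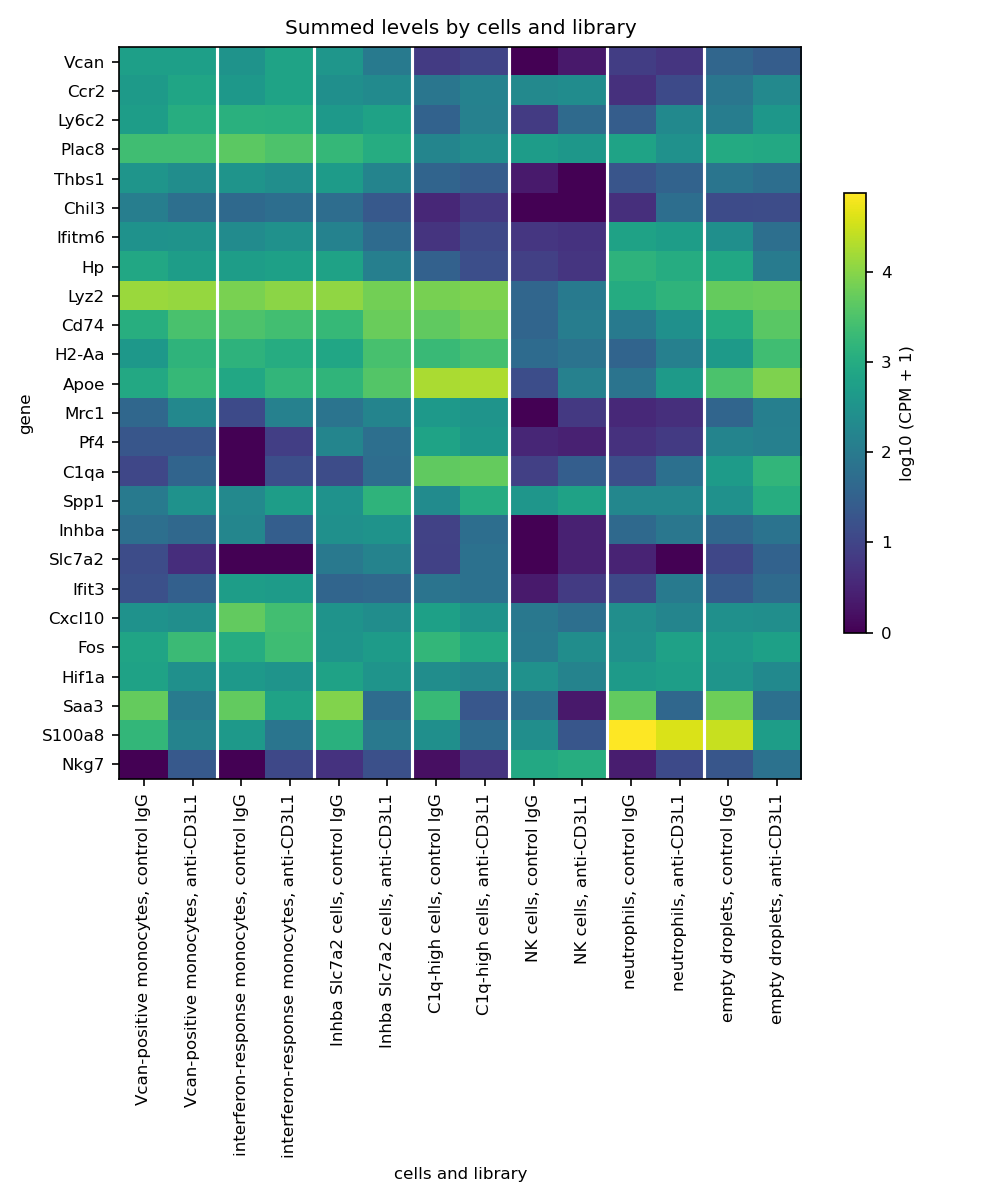
Rows are genes, columns are the cells of each library and the droplets without a cell, and the colour gives log10 of summed CPM plus 1. Within their own rows, Plac8, Thbs1, Chil3 and Ifitm6 are higher in the columns of the Vcan-positive monocytes than in the C1q-high columns, and Apoe and Pf4 are lower. Rows of Vcan, C1qa, Ifit3, S100a8, Inhba and Slc7a2 follow from the rules that chose the cells.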

How the data were processed

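Immune cells were taken from tumors with CD45 magnetic beads and run on the 10x Genomics Chromium system, 1 library per group. Per the labels, the authors processed the reads with Cell Ranger 7.1.0 on build GRCm39 and used Seurat 5.1.0 downstream. The deposited counts are raw UMI counts of 32285 genes per barcode, with 1084690 and 1548857 barcodes and 74850604 and 108246719 UMIs in the control IgG and anti-CD3L1 libraries. A table of the authors' own comparisons was deposited too and was not used.

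Cells were filtered as the study's methods state, with a minimum of 500 UMIs added. No doublet caller was run, and likely doublets were left out in an alternative. Counts were summed over members, divided by their total and given per 1000000 (CPM), with exact Poisson intervals for levels and exact binomial intervals at 95% for ratios. Droplets without a cell were barcodes ranked 45000 to 90000 by UMIs. Thinning drew 2000 UMIs per cell without replacement. With 1 library per group there is no test. Named genes were the rule and marker genes, listed genes at 50 CPM or more by size of ratio, the 15 largest ratios in each direction, the 10 highest and lowest against each compared class, and Nrp2, Nrp1 and Itpripl1. A few genes that meet these rules are not reported here. The members and gene lists were chosen with earlier results of these data known. The CCAAT motif was added after the class II values were seen. The lists held 456 genes, of which 451 were in the files. Reads of near-identical genes such as Ly6c1 and Ly6c2 may be split between them, so their values are uncertain. The intervals were tested on simulated counts that held counting error only, and the thinning on members of the control IgG library. Analyses used Python 3.11.15, numpy 2.4.6, scipy 1.17.1 and pandas 2.3.3.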

Additional observations from a re-analysis of the deposited data

Results flagged for a closer look

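Genes at least 2-fold apart between the libraries in opposite directions in the members and in the C1q-high cells were looked for among 2907 genes at 50 CPM in both. They numbered 5, of which 4 are given here. With 1 library per group, the difference between the cell types was not tested. Jun had a log2 ratio, anti-CD3L1 to control IgG, of 1.02 in members and -1.35 in C1q-high cells. Its ratio in members fell under 2-fold in 7 alternatives, down to 0.95. Its levels were 721 and 1466 CPM in members and 1848 and 725 CPM in C1q-high cells. Klf2 had 1.20 and -1.30, at 236 and 544 CPM in members and 642 and 261 CPM in C1q-high cells. Rai14 had -1.19 and 1.02. Chka, a choline kinase, had 1.23 and -1.06. Against the Inhba Slc7a2 cells, 0 of 3125 genes passed 2-fold in opposite directions. The C1q-high cells numbered 212 after control IgG and 2047 after anti-CD3L1, and whether their make-up differed was not tested.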

How the results depend on the processing

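No paired analysis was possible because each group holds 1 library. Of 74 named genes past 2-fold, 54 stayed past 2-fold in the same direction under every alternative that gave a ratio, and 942 of 943 values stayed on the same side of 0. The exception was Col3a1, at -0.77 with possible doublets left out. All 7 class II genes at 50 CPM had ratios above 0 under each choice of members or scaling, and 1 glycolysis and hypoxia gene was higher under each, except for 2 with the rule after thinning. That setting left 6 of 7 interferon-gamma and 13 of 20 type I genes above 0, with Irf1 at 0.19, Gbp2b at 0.05, Hif1a at -0.93 and Pgk1 at -0.76. With members thinned, 20 of 22 type I genes and 6 of 18 pattern recognition receptors were above 0. With the profile of empty droplets subtracted, the log2 ratios were 1.37 for H2-Aa, 1.07 for Cd74, 1.01 for H2-Ab1, -5.45 for Saa3, -1.59 for Aldoa and 1.91 for Fos. Under 2-fold were H2-Eb1 at 0.84, Chil3 at -0.71, Msr1 at -0.92 and Il1b at -0.99. Ckb stood at 1.54, Lpl at 1.42, Mif at -3.38, Adam8 at -3.02 and Lcn2 at -3.35. The ratios of 26 of 92 named genes moved by over 1.5 times with the rule after thinning, and of at most 7 under any other alternative. Among the 26, Isg15 turned to -0.60. Chil3 and Jun were under 2-fold in 7 alternatives each, Apoe in 5, Il1b, Cd86, Mif, Pgk1, Msr1 and Itpripl1 in 2 each, and Ly6c2, Aldoa, Hif1a, Olr1, Rai14, Gm34084, H2-Eb1, Irf1 and Gbp2b in 1 each. The counts of genes past the fold, 140 higher and 96 lower, became 241 higher with that subtraction, 522 and 289 when the rule was applied after thinning each cell to 2000 UMIs, 317 higher at 20 CPM, 2447 and 962 at 3 UMIs in total, 432 and 255 at 1.5-fold, and 35 and 34 at 3-fold. The subtraction removed 3.54% and 29.9% of members' UMIs. It was scaled by S100a8, S100a9, Retnlg and globin genes, which the members may make themselves. The rule limited S100a8 and S100a9, so the amount removed is not a bound on free RNA. After anti-CD3L1, 97.3% of the members' S100a9 UMIs and 88.1% of their S100a8 UMIs lay in 36 of 360 cells. Few cells thus set the amount removed there. Member shares in the control IgG and anti-CD3L1 libraries were 2.76% and 2.25% with 3 Vcan UMIs, 4.53% and 5.35% with 1 Vcan UMI, 3.03% and 2.79% with 2 Ccr2 UMIs, and 1.002% and 0.912% after thinning, and the control IgG share was 10.5% without cells high in S100a8 and S100a9. The order of the shares thus turned with 1 Vcan UMI. With other thresholds for the compared cells, 134 genes in place of 26 were higher in members than in the interferon-response monocytes. Depth limits genes under 50 CPM, where few UMIs set the ratio. With the rule after thinning, the members were fewer and held 2000 UMIs each. A gene at 50 CPM thus rested on fewer UMIs there than in the main setting. How much of that setting's shifts was counting error was not tested, nor were the causes of the other shifts.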

Other observations

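Ly6c1 and Ly6c2 differed in opposite directions. Ly6c1, a close paralog of Ly6c2, stood at 294 CPM with control IgG and 6.42 CPM with anti-CD3L1 in the members, while Ly6c2 stood at 515 and 1096 CPM. In the anti-CD3L1 library, 1 cell held 18 of the 21 Ly6c1 UMIs. Ly6c1 was also lower in the Inhba Slc7a2 cells at 244 and 2.12 CPM and in C1q-high cells at 20.8 and 0.612 CPM.

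Mpp7 and Tpd52l1 were low in the anti-CD3L1 library in the members and in the other cells named here. Mpp7, a scaffold protein, stood at 180.0 and 0.306 CPM in members, on 678 UMIs and 1 UMI, with a log2 ratio of -9.20 and a counting interval of -14.51 to -6.72. It stood at 342 and 11.2 CPM in NK cells, 123 and 1.09 CPM in C1q-high cells and 197 and 2.33 CPM in neutrophils. Tpd52l1 stood at 79.7 and 0.306 CPM in members, on 300 UMIs and 1 UMI, and at 153 and 0.589 CPM in NK cells. What sets these values apart between the libraries was not tested.

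Of 18 cell cycle genes, 2 reached 50 CPM in at least 1 library, a share close to that of all genes, 3384 of 32285. They were Pcna at 62.9 and 79.2 CPM and Tubb5 at 100.1 and 112 CPM. Mki67 was detected in 5.15% and 4.46% of thinned members, and in 21.4% and 12.8% before thinning. In thinned C1q-high cells it was detected in 8.02% and 7.13%. Of the Ms4a family, Ms4a4a stood at 150.3 and 70.0 CPM and Ms4a6c at 1094 and 1143 CPM. The matrix protease Mmp14 stood at 233 and 66.0 CPM, and Ass1, an enzyme of arginine synthesis, at 119.7 and 38.5 CPM.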
